A study of Mus musculus with 20 samples.

Results

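Losartan was examined in smoke-exposed lungs by setting the 3 arrays labelled cigarette smoke plus losartan (CS_Los 1 to 3, numbered 7 to 9 in the labels) against the 3 cigarette smoke arrays of the same batch (CS 1 to 3), 6 of the 20 arrays of the series. The 6 arrays were chosen by their agent and batch labels alone. RNA from lung tissue was amplified, labelled with biotin and hybridised to Illumina mouse bead arrays, on which the brightness of many beads carrying the same probe is averaged into a signal. Batch 1 also held 3 arrays of room air (RA 1 to 3) and 3 of room air with losartan (RA_Los 1 to 3), which shared the estimate of the spread. The 8 arrays of batch 2 (RA and CS) defined the smoke genes and took part in the normalization and the probe filter. They were left out of the main fit and entered an alternative fit of all 20 arrays.

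The mice of all groups were males of the inbred strain AKR/J, aged 6 to 8 weeks when they were divided. CS mice breathed smoke of 2R4F reference cigarettes from a smoking machine for 2 h daily, 5 days weekly, with carbon monoxide near 350 ppm, and CS_Los mice breathed the same smoke with losartan at 0.6 g/L in the drinking water. RA mice stayed in filtered air and RA_Los mice received losartan at 0.6 g/L without smoke. The exposure is given as 6 to 7 weeks in the protocol and as 2 months in the series text, and the protocol names 3 groups where the labels give 4. No label states that each array stands for a separate animal, so the p-values rest on the spread among these arrays, which may be technical.

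Losartan blocks the angiotensin II type 1 receptor, through which the hormone made by angiotensin-converting enzyme constricts vessels and, in the lung, promotes growth factor signalling, inflammation and scarring. Angiotensin II is known to raise signalling by TGF-beta, a growth factor held in the matrix that drives fibroblasts to lay down collagen and elastin. Cigarette smoke brings polycyclic hydrocarbons that bind the aryl hydrocarbon receptor and switch on Cyp1a1, draws neutrophils and macrophages into the airspaces, and exposes elastic fibres to their proteases.

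The 3 CS_Los arrays differed from each other more than the CS arrays did, and 2 of them stood apart. All levels below are normalized log2 signals, and differences are differences of these. The median SD of a feature within a group was 0.259 in CS_Los, 0.183 in CS, 0.227 in RA_Los and 0.166 in RA. Of 12719 features, 8619 (67.8%) had the larger SD in CS_Los, and 1374 (10.8%) ranged at least 2-fold over the CS_Los arrays against 444 (3.49%) over the CS arrays. The ratio of the median SDs was 1.41. It was 1.19, 1.21 and 1.06 without CS_Los 1, 2 and 3, and 2.29, 1.61 and 1.54 without CS 1, 2 and 3. With an array left out, an SD of 2 arrays is set against an SD of 3. These ratios therefore do not show which array widened the spread. Over all features CS_Los 1 lay closest to CS 3 (Pearson r = 0.988), CS_Los 2 lay closest to a room air array, RA 2 (r = 0.988), and CS_Los 3 to RA_Los 2 (r = 0.978). At least 2-fold from the CS mean lay 132 features on CS_Los 1, 303 on CS_Los 2 and 324 on CS_Los 3. The batch 1 arrays detected 13946 to 15155 of 25697 probes, with median signals of 57.2 to 72.3, and CS_Los 3 had the lowest of these medians. Lung markers were present on all 6 arrays: surfactant protein C (Sftpc) read 14.47, 14.76 and 14.65 in CS and 14.68, 14.37 and 14.60 in CS_Los, and the alveolar receptor gene Ager read 13.28 to 13.75.

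The smoke label itself was checked with Cyp1a1, the hydrocarbon-metabolising enzyme induced through the aryl hydrocarbon receptor. It read 5.62, 7.48 and 7.32 on the CS arrays and 7.97, 4.27 and 4.54 on CS_Los 1, 2 and 3, while the RA arrays read 4.29 to 4.46. The library labelled CS_Los 1 thus lay above all CS arrays, and the libraries labelled CS_Los 2 and CS_Los 3 lay at or near the level of room air and were not detected. Whether the animals behind these 2 libraries breathed smoke as labelled cannot be told from the arrays, so every CS_Los value below is that of libraries so labelled. The mean difference was −1.21 ± 0.76 (SE, n = 3 per group; limma adjusted p = 0.880). It was −2.40, −0.55 and −0.68 without CS_Los 1, 2 and 3, and 1.17 with CS_Los 1 as the only losartan array. Cyp1b1, a related enzyme, read 8.64, 8.75 and 8.77 in CS against 8.53, 8.15 and 8.35 in CS_Los, which do not overlap, and 7.65 to 7.95 in RA.

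CS_Los 3 carried RNA of genes known from liver. Mup2, a urinary protein that the liver secretes, read 4.58, 4.71 and 4.69 in CS and 5.25, 4.49 and 12.22 in CS_Los. The apolipoprotein gene Apoa2 read 8.52 on CS_Los 3 and 4.23 to 4.66 on the other 5 arrays, and Ahsg, which encodes the plasma protein fetuin-A, read 7.48 against 4.40 to 5.50. Over 12 measured genes of a liver list drawn up after these values were seen, CS_Los 3 lay 2.02 above the CS mean, CS_Los 1 and 2 lay 0.03 and 0.14 above it, and the CS arrays lay between −0.16 and 0.09. RA_Los 2, the array nearest to CS_Los 3, lay 1.95 above. The part of these transcripts in other results was not tested. Of 204 genes named by rule, the mean difference of CS_Los from CS changed sign or moved by over 1.5 times in 70 without CS_Los 1, in 78 without CS_Los 2 and in 85 without CS_Los 3, and in 32 to 42 without a CS array. The rule took in the 10 genes widest over CS_Los and none so chosen over CS, so these counts are not an even comparison.

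**Figure D1:**
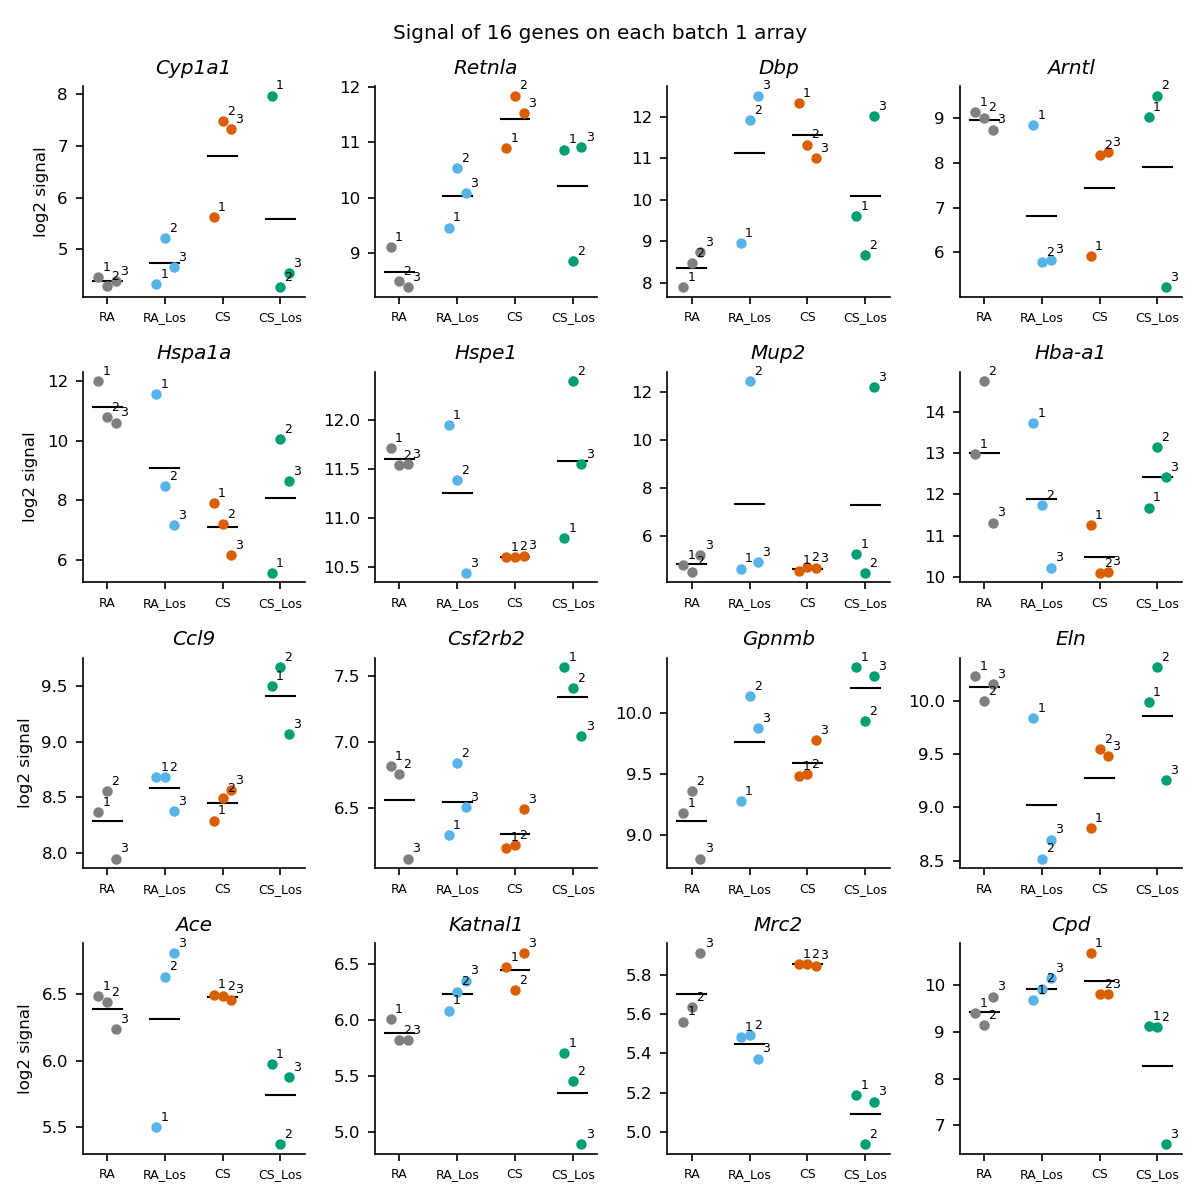
Normalized log2 signal (vertical axis of each panel) of 16 genes in the 4 groups of batch 1; points are arrays with their replicate number and the bar is the group mean. Cyp1a1 is high on CS_Los 1 only among the losartan smoke arrays, Mup2 is high on CS_Los 3 and RA_Los 2, and for Ccl9, Csf2rb2, Ace, Katnal1 and Mrc2 the CS_Los points do not overlap the CS points.

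The comparison of CS_Los with CS asked how the lungs labelled as exposed to smoke with losartan differed from those labelled as exposed to smoke alone, with the doubt over CS_Los 2 and CS_Los 3 given above. No gene passed the threshold, a Benjamini-Hochberg adjusted p under 0.05 in limma's fit of the 12 arrays: 0 of 12719 features (0%) were called, and the lowest adjusted p was 0.556. At an unadjusted p under 0.05 there were 309 higher (2.43%) and 447 lower (3.51%), 756 in all (5.94%). In 558 features (4.39%) every CS_Los array lay above every CS array, and in 791 (6.22%) every CS_Los array lay below. Means differed at least 2-fold in 33 features upward and 42 downward. With CS_Los 2 left out, 793 features had an unadjusted p under 0.05, with CS_Los 3 left out 795, and with CS_Los 1 left out 1328 (10.4%), again with 0 called. Leaving out CS 1, CS 2 or CS 3 gave 609, 613 and 701. A limma fit of the 6 compared arrays alone gave 600 (4.72%), with a lowest adjusted p of 0.936.

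**Figure D2:**
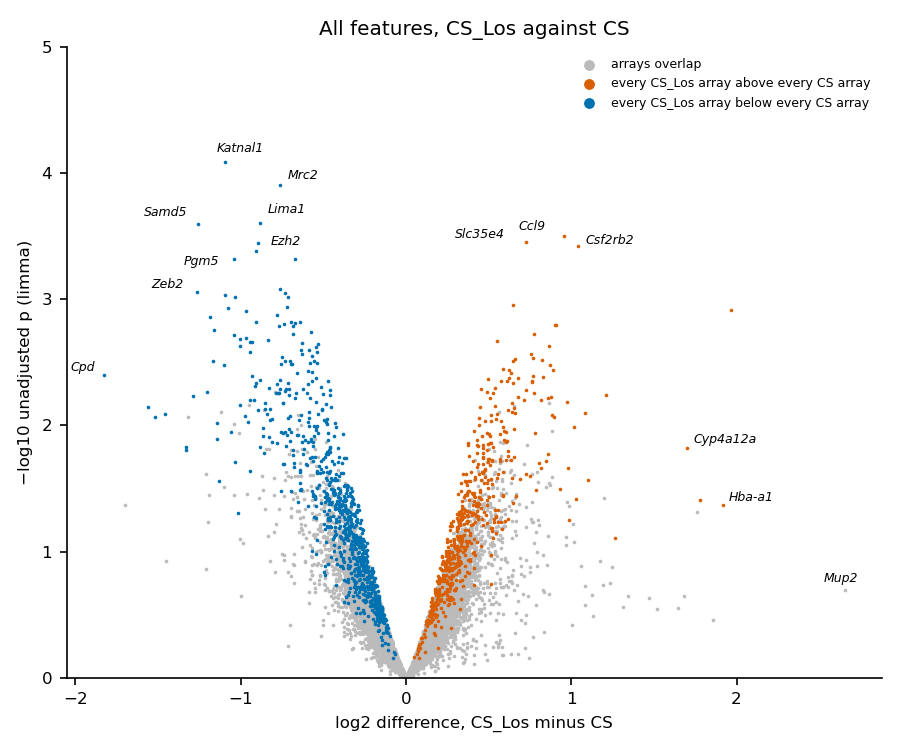
Each point is 1 of 12719 features; the horizontal axis is the log2 difference of CS_Los from CS and the vertical axis is −log10 of limma's unadjusted p. Coloured points are the 558 features with every CS_Los array above and the 791 with every CS_Los array below the CS arrays, and none passed an adjusted p under 0.05.

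Ccl9, a chemokine that attracts myeloid cells, was among the 10 genes with the highest statistics and read 8.29, 8.49 and 8.57 in CS and 9.49, 9.67 and 9.07 in CS_Los. Each CS_Los array lay above each CS array and above each RA array (7.95 to 8.55), and the difference was 0.96 ± 0.20 (SE; adjusted p = 0.556). Csf2rb2, a receptor subunit for interleukin 3 in the mouse, read 6.20, 6.21 and 6.49 in CS and 7.57, 7.41 and 7.04 in CS_Los (1.04 ± 0.22; adjusted p = 0.556). Without CS_Los 2 these differences were 0.83 for Ccl9 and 1.00 for Csf2rb2, and without CS_Los 3 they were 1.13 and 1.19. Cd209a, a C-type lectin of dendritic cells, read 5.99, 5.78 and 6.12 in CS and 6.65, 7.06 and 6.50 in CS_Los. Scimp, an adaptor protein of antigen-presenting cells, read 6.07, 5.89 and 5.53 against 6.71, 6.62 and 6.42. In each of these 4 genes the groups did not overlap.

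The other genes of that rank had varied roles. Krt79, an epithelial keratin, read 7.20, 7.23 and 7.35 in CS and 8.43, 8.04 and 8.03 in CS_Los, and Ehhadh, an enzyme of peroxisomal fatty acid oxidation, read 5.55, 5.55 and 5.38 against 6.12, 6.10 and 5.92. Ppt2, a lysosomal thioesterase, differed by 0.65 and Xlr4a by 0.87. Slc35e4 and the glycosyltransferase gene B3gnt7 were detected on none of the CS arrays and on 2 and 3 CS_Los arrays, which puts them at least 1.15-fold and at least 1.38-fold higher. None of these passed the test either, with adjusted p-values of 0.556 to 0.580 over the 20 genes of highest and lowest statistic.

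At the low end, Katnal1, a katanin-like protein that severs microtubules, read 6.47, 6.27 and 6.60 in CS and 5.70, 5.45 and 4.89 in CS_Los, a difference of −1.10 ± 0.20 (SE; adjusted p = 0.556). Mrc2, a fibroblast receptor that takes up collagen, had nearly equal values in CS (5.86, 5.86 and 5.85) and lower ones in CS_Los (5.19, 4.93 and 5.15; −0.76 ± 0.14). Lima1, an actin-binding protein, read 10.40, 10.04 and 10.19 against 9.46, 9.56 and 8.96. Each of the 3 genes was lower on every CS_Los array than on every CS array. Mrc2 was the sole gene called under any alternative, in the fit of all 20 arrays with batch as a term (adjusted p = 0.00516). Its RA arrays read 5.56 to 5.92.

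Ezh2, the histone methyltransferase of Polycomb repression, was also among the 10 lowest statistics and read 6.72, 7.02 and 6.84 in CS and 6.37, 5.91 and 5.61 in CS_Los (−0.90 ± 0.19). Zeb2, a zinc finger repressor of epithelial genes, read 9.85, 9.79 and 9.48 against 8.87, 8.89 and 7.56, a difference of −1.27 that was −0.83 without CS_Los 3. The zinc finger gene Zfp292 differed by −0.67. CS_Los 3 was the lowest array in all 3. Samd5, Prss35, Pgm5 and Mpp5, a scaffold protein of epithelial polarity, differed by −1.26, −0.91, −1.04 and −0.76, and Samd5 was detected on 1 of 3 CS_Los arrays.

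Of the 10 lowest mean differences without overlap, 8 shrank by over 1.5 times without CS_Los 3, and Samd5 and Zc3h13 did not. Cpd, a membrane carboxypeptidase, read 10.70, 9.81 and 9.80 in CS and 9.13, 9.10 and 6.59 in CS_Los, a difference of −1.83 ± 0.52 (SE; adjusted p = 0.580) that was −0.99 without CS_Los 3. Bach1, a repressor of haem and antioxidant genes, read 8.30, 8.26 and 5.87 in CS_Los, and the helicase gene Ddx6 read 7.88, 8.33 and 6.24. Megf9, Pcyt1a, which encodes the rate-limiting enzyme of phosphatidylcholine synthesis, Nfatc3 and Ndnf likewise had CS_Los 3 lowest, at 5.55, 6.75, 5.79 and 5.97. Without CS_Los 3 the differences were −0.76 for Bach1, −0.84 for Ddx6, −0.81 for Megf9, −0.50 for Pcyt1a, −0.79 for Nfatc3 and −0.71 for Ndnf. Samd5 was at −1.13 without that array, and Zc3h13 had CS_Los 1 lowest (5.59, 5.92 and 6.09). On RA_Los 2, the array nearest to CS_Los 3 and with the same liver transcripts, Cpd read 9.93 and Bach1 8.99.

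Among the highest mean differences without overlap were Cyp4a12a, a fatty acid hydroxylase, at 5.41, 5.14 and 5.30 in CS and 5.78, 7.38 and 7.79 in CS_Los (1.70 ± 0.61), and Prph, a neuronal intermediate filament, at 5.73, 4.71 and 5.27 against 6.18, 7.01 and 6.14. Ear10, a ribonuclease of the eosinophil family, read 9.93, 9.91 and 10.34 in CS and 11.70, 10.93 and 10.61 in CS_Los (1.02 ± 0.34; adjusted p = 0.638). Ms4a8a, a membrane protein found on alternatively activated macrophages in the mouse, read 4.51, 5.66 and 6.13 against 6.90, 6.49 and 6.16, a difference of 1.08 that was 0.62 without CS 1. For Ear10 and Ms4a8a the highest array was CS_Los 1, and for Cyp4a12a it was CS_Los 3.

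Of the drug's own pathway, 11 of 18 listed genes were measured. Agtr1a, the receptor that losartan blocks, read 7.44, 7.94 and 7.59 in CS and 7.73, 7.56 and 7.56 in CS_Los, a difference of −0.04 ± 0.19. Its second mouse form, Agtr1b, was detected on 1 CS array and on 0 CS_Los arrays. Ace, which makes angiotensin II, read 6.50, 6.49 and 6.46 in CS and 5.97, 5.37 and 5.87 in CS_Los. All CS_Los arrays lay below all CS arrays and the difference was −0.74 ± 0.28 (SE; adjusted p = 0.734). RA arrays read 6.24 to 6.49, and RA_Los arrays spread from 5.50 to 6.81. Anpep, an aminopeptidase that breaks down angiotensin fragments, read 7.06, 7.54 and 7.60 in CS and 7.77, 7.99 and 8.20 in CS_Los (0.59). Agtrap, a protein that binds and internalises the type 1 receptor, and Atp6ap2, the prorenin receptor, differed by 0.12 and 0.02. The mast cell chymase gene Cma1, another maker of angiotensin II, was detected on 2 of 3 arrays in each group and differed by 0.01. The list had 7 genes above zero and 4 below, with a median of 0.02 (−0.03 to 0.12 with an array left out). Agt, the precursor, and Agtr2, the type 2 receptor, were not analysed here.

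TGF-beta genes lay evenly to both sides of zero. Of 30 measured genes of TGF-beta and BMP signalling 15 were above and 15 below zero, 0 were called, and the median was −0.01, as over all features (−0.00499). Tgfb1, the ligand, read 7.22, 6.84 and 7.15 in CS and 7.03, 7.25 and 7.83 in CS_Los (0.30 ± 0.20; adjusted p = 0.902), and the difference was 0.07 without CS_Los 3. Ccn2, a connective tissue growth factor induced by TGF-beta, read 13.01, 13.01 and 12.92 against 12.87, 12.93 and 12.89. Tgfb2, another ligand, read 8.74, 8.78 and 8.88 in CS and 8.70, 7.49 and 8.32 in CS_Los. Its groups did not overlap, the gap between CS 1 and CS_Los 1 was small, and CS_Los 2 was lowest. Its difference of −0.63 was −0.29 without CS_Los 2.

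Elastic fibre genes were higher on average, with 11 of 14 above zero and a median of 0.16, and 0 were called. Eln, which encodes elastin itself, read 8.81, 9.54 and 9.48 in CS, 9.99, 10.32 and 9.26 in CS_Los and a mean of 10.13 ± 0.12 (SD, n = 3) in RA. CS_Los 1 and 2 lay near the RA arrays and CS_Los 3 among the CS arrays, and the difference was 0.58 ± 0.34 (SE; adjusted p = 0.880). It was 0.34 without CS_Los 2 or without CS 1, and 0.88 without CS_Los 3. Lox, the enzyme that cross-links elastin and collagen, read 7.96, 8.63 and 9.00 against 8.71, 10.64 and 8.49, a difference of 0.75 that was 0.07 without CS_Los 2. Loxl1, a relative that acts on elastin, differed by −0.26. The collagen and interstitial matrix list had 13 of 20 genes above zero and a median of 0.10, which was −0.03 without CS_Los 3 and 0.02 without CS 1.

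Of the elastin-degrading proteases, Ctss lay higher without overlap, and Mmp12 and Mmp9 overlapped between the groups. Mmp12, the macrophage elastase, read 6.67, 6.63 and 6.73 in CS and 6.88, 6.41 and 6.53 in CS_Los (−0.07 ± 0.18), and Mmp9, a gelatinase of neutrophils and macrophages, read 8.54, 8.28 and 7.78 against 8.73, 8.55 and 8.02 (0.23 ± 0.22; 0.08 without CS_Los 1 and 0.02 without CS 3). Timp1, an inhibitor of these enzymes, differed by 0.14. Ctss, a lysosomal cathepsin with elastase activity, read 11.57, 11.21 and 11.75 in CS and 12.50, 12.04 and 11.83 in CS_Los, which do not overlap (0.62). Serpina1a, a mouse form of the elastase inhibitor antitrypsin, read 5.67, 5.72 and 5.30 against 5.78, 6.58 and 7.28, and it is also on the liver list. Over the 26 proteases and inhibitors 3 lay without overlap above and 3 below, where all features gave 4.39% and 6.22%, and the median was 0.09.

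Macrophage genes had a median of 0.29 over 19 measured members of 30, with 14 above zero and 0 called. At an unadjusted p under 0.05 there were 5, all higher, and 4 lay without overlap above, against 2.43% and 4.39% of all features. The median was 0.17 without CS_Los 1. Gpnmb, a glycoprotein of lipid-laden macrophages, read 9.48, 9.50 and 9.78 in CS and 10.37, 9.93 and 10.30 in CS_Los (0.61; adjusted p = 0.719). Mrc1, the mannose receptor, read 9.32, 9.59 and 9.60 against 9.89 to 10.02. Chil3, a chitinase-like protein, and Lpl, a lipase that alveolar macrophages express, also lay without overlap above (0.57 and 0.54). Siglecf, a surface lectin of alveolar macrophages and eosinophils, read 5.17, 5.09 and 5.58 against 6.53, 5.67 and 5.43, and Cx3cr1, the fractalkine receptor of monocytes, differed by −0.80, and by −0.38 without CS_Los 2. The list lay 0.48 above the CS mean on CS_Los 1, 0.05 on CS_Los 2 and 0.15 on CS_Los 3. In whole lung, more cells of a type and more RNA per cell cannot be told apart.

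Genes of antigen presentation had a list mean above that of CS on CS_Los 1 and 2 but not on CS_Los 3. Their list mean was 0.22, 0.34 and −0.06 from the CS mean on CS_Los 1, 2 and 3, and the list median 0.28, 0.48 and 0.04. Over 15 measured genes of dendritic cells and MHC class II the median was 0.26, with 11 above zero. At an unadjusted p under 0.05 there were 4 upward and 1 downward, against 2.43% and 3.51% of all features. The groups did not overlap in 3 upward and 1 downward, against 4.39% and 6.22% of all features. Cd74, the invariant chain that escorts class II molecules, read 11.95, 12.58 and 12.52 in CS and 12.90, 12.91 and 12.75 in CS_Los (0.50, and 0.30 without CS 1), and H2-Ab1, a class II beta chain, read 10.95, 11.27 and 10.95 against 11.33, 11.92 and 11.28. Ccr7, which guides dendritic cells and T cells to lymph nodes, lay the other way, at 5.99, 5.60 and 5.85 in CS and 5.54, 4.75 and 4.84 in CS_Los, and was detected on 1 of 3 CS_Los arrays. Without CS_Los 2 the median of this list was 0.03.

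Of 35 measured chemokines and cytokines 29 lay above zero, with a median of 0.17 that was 0.18, 0.18 and 0.25 without CS_Los 1, 2 and 3 and 0.27 without CS 3. Ccl6, a relative of Ccl9, read 5.64, 6.18 and 5.90 in CS and 7.43, 6.37 and 6.38 in CS_Los (0.82, and 0.47 without CS_Los 1). Il33, an alarm cytokine of alveolar epithelium, read 9.39, 9.47 and 9.82 against 9.82, 10.28 and 10.32. Il1b, an inflammatory cytokine, read 7.39, 8.61 and 8.22 against 8.50, 10.19 and 7.89, with CS_Los 2 alone above the CS arrays by over 1. Cxcl12, a chemokine of stromal cells, read 12.51, 12.41 and 12.40 against 12.40, 11.59 and 11.77. None of these genes passed the test.

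Neutrophil genes were split by array. The calcium-binding protein gene S100a8 read 10.55, 11.30 and 11.59 in CS and 12.70, 12.24 and 10.76 in CS_Los, and Retnlg read 6.17, 6.95 and 6.70 against 8.43, 7.43 and 6.62. CS_Los 1 and 2 were above the CS arrays and CS_Los 3 lay among them. Cd177, a surface protein of neutrophils, had its lowest CS_Los value on CS_Los 2 (6.82, 7.77 and 7.89 in CS; 6.93, 6.10 and 6.93 in CS_Los). Of 15 measured neutrophil genes 9 lay above zero and 6 below. The list mean lay 0.37, 0.32 and −0.11 from the CS mean on CS_Los 1, 2 and 3. It lay at −0.97, −0.67 and −1.24 on the RA arrays and at −0.55, −0.32 and −0.64 on the RA_Los arrays. On this list all 3 CS_Los arrays thus lay above every RA array. B cell genes had the widest split of the immune lists: over 18 genes CS_Los 1 lay at 0.62 and CS_Los 2 at −0.67 from the CS mean, and the CS arrays ran from −0.33 to 0.32. Cd79a, a chain of the B cell receptor, read 7.93, 5.08 and 6.97 on the CS_Los arrays and 7.74, 6.80 and 6.42 in CS. T and NK cell genes split the same way, with 0.31 on CS_Los 1 and −0.30 on CS_Los 2.

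**Figure D3:**
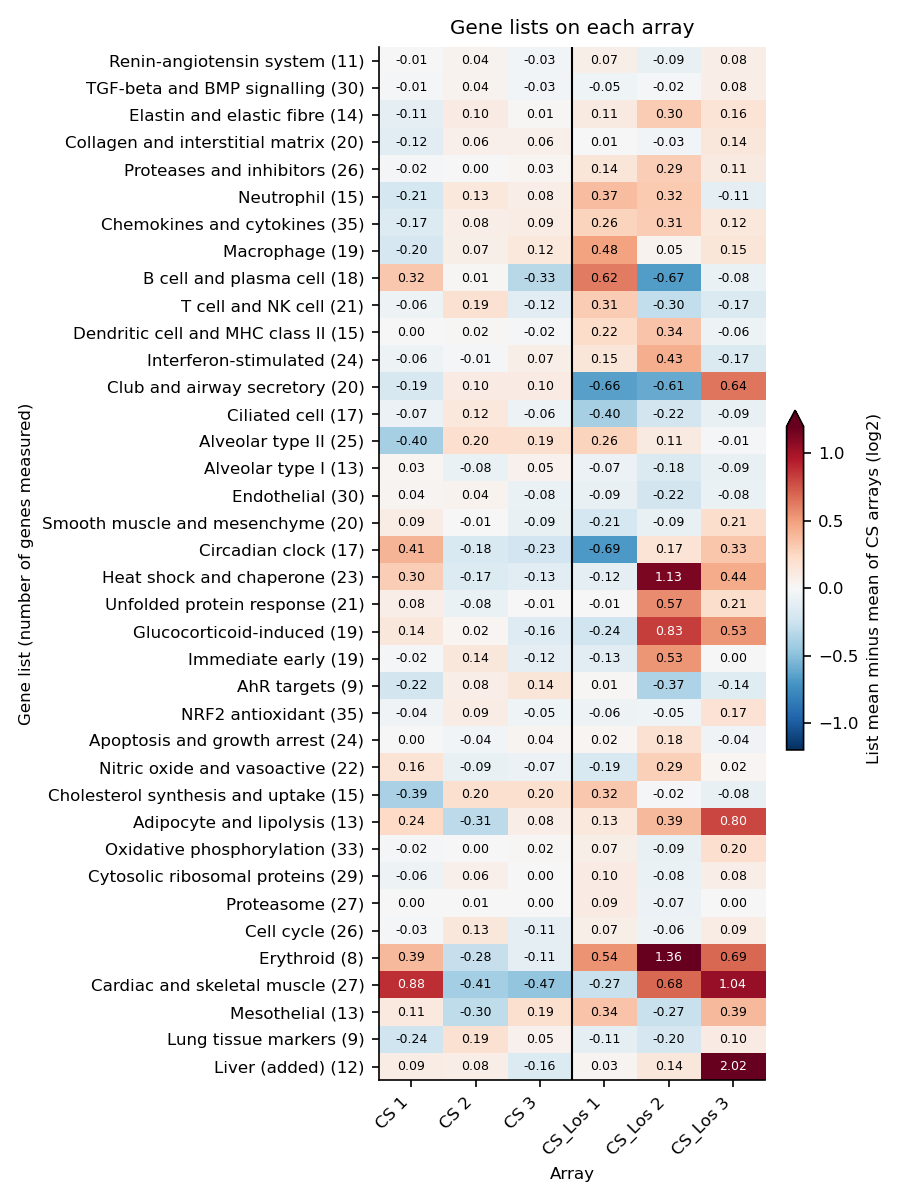
Each cell gives the mean of a gene list (rows, with the number of genes measured) on an array (columns) minus its mean over the CS arrays, in log2 units and coloured from blue (lower) to red (higher). The 3 columns at the right are the CS_Los arrays: heat shock and glucocorticoid genes are highest on CS_Los 2, liver and muscle genes on CS_Los 3, and club cell genes are low on CS_Los 1 and 2 and high on CS_Los 3.

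Airway genes differed between the CS_Los arrays. Scgb3a1, a secretoglobin of airway secretory cells, read 12.09, 12.80 and 12.68 in CS and 10.99, 10.84 and 13.58 in CS_Los, and Bpifa1, a lipid-binding protein of upper airway secretions, read 8.55, 8.76 and 9.22 against 7.19, 8.27 and 13.31. Reg3g, an antibacterial lectin, read 7.96, 8.22 and 11.80 in CS_Los. CS_Los 3 was above, and CS_Los 1 and 2 below, the CS arrays in all 3 genes. The RA_Los arrays spread as widely for Bpifa1, from 4.36 to 13.10. Over 20 club and airway secretory genes the CS_Los arrays lay −0.66, −0.61 and 0.64 from the CS mean. On this list the RA arrays lay −1.31, −0.90 and −1.57 from the CS mean, and the RA_Los arrays 0.12, 0.61 and −1.47. Ciliated cell genes were lower on each CS_Los array (−0.40, −0.22 and −0.09), with 15 of 17 below zero and a median of −0.26, which was −0.08 without CS_Los 1. In 4 of them the groups did not overlap, lower, against 6.22% of all features, among them Dnali1, a dynein chain of cilia, at 7.01, 7.42 and 7.13 against 6.64, 6.85 and 6.40. Foxj1, the transcription factor of ciliated cells, differed by −0.06.

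Alveolar and vessel genes differed little on average. Over 25 alveolar type II genes the median was 0.09, over 13 type I genes −0.10 and over 30 endothelial genes −0.11, and 0 members were called. The type II median was −0.03 without CS 1, and the endothelial median was −0.21 without CS_Los 1. Ednrb, the endothelin B receptor of vessels, read 12.38, 12.37 and 12.35 in CS and had a mean of 11.74 ± 0.24 (SD, n = 3) in CS_Los, with CS_Los 2 lowest at 11.54 (difference −0.63; adjusted p = 0.580), without overlap. Prkg1, the kinase through which nitric oxide relaxes vessels, read 8.26, 7.35 and 7.29 against 6.89, 6.62 and 6.55, also without overlap (−0.94). Emcn, a surface protein of capillaries and veins, read 11.09, 11.39 and 11.27 against 11.10, 9.86 and 10.77. Clic5, a type I cell protein, read 9.51, 9.24 and 9.70 against 8.90, 9.21 and 8.94. Xiap, an inhibitor of caspases on the apoptosis list, lay lower without overlap at 6.70, 5.93 and 6.40 against 5.52, 5.34 and 5.07, while that list had a median of 0.07 over 24 genes.

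Haemoglobin genes had large differences with a wide spread. Hba-a1 read 11.26, 10.11 and 10.14 in CS, 11.68, 13.15 and 12.42 in CS_Los and 12.97, 14.73 and 11.32 in RA (difference 1.92 ± 0.85; adjusted p = 0.831). The near-identical beta chain genes Hbb-bt and Hbb-b2 differed by 1.78 and 1.76, and their probes may share transcripts. Of 8 erythroid genes 6 lay above zero. Heart muscle genes were high on CS 1, CS_Los 2 and CS_Los 3, with the 27 measured muscle genes at 0.88, 0.68 and 1.04 from the CS mean, and low on CS 2, CS 3 and CS_Los 1 (−0.41, −0.47 and −0.27). Nppa, the atrial natriuretic peptide, read 8.61, 4.58 and 5.87 in CS and 4.42, 9.92 and 10.30 in CS_Los. The adipocyte hormone gene Adipoq read 7.94, 4.76 and 7.26 against 7.33, 7.79 and 9.26.

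Heat shock genes were the list with the highest median among those not tied to blood, muscle or liver. Of 23 measured chaperone genes 21 lay above zero, the median was 0.47, 0 were called, and 3 lay without overlap above, against 4.39% of all features. The list lay −0.12, 1.13 and 0.44 from the CS mean on CS_Los 1, 2 and 3, and its median was 0.17 without CS_Los 2 and 0.77 without CS_Los 1. On the RA arrays the list lay 1.01, 0.86 and 0.72 from the CS mean, and on the RA_Los arrays 1.33, 0.57 and 0.12. Hspa1a, the inducible Hsp70 chaperone, read 7.92, 7.19 and 6.16 in CS, 5.57, 10.05 and 8.66 in CS_Los and a mean of 11.14 ± 0.75 (SD, n = 3) in RA. CS_Los 2 and 3 lay between the CS and RA arrays and CS_Los 1 below all of them. Hspe1, the small subunit of the mitochondrial chaperonin, read 10.60, 10.60 and 10.61 in CS and 10.80, 12.40 and 11.56 in CS_Los, without overlap (0.98 ± 0.38; adjusted p = 0.771), and 0.57 without CS_Los 2. Hspb1, a small heat shock protein, read 8.99, 9.06 and 8.92 against 9.14, 12.14 and 9.48, and its mean difference of 1.26 was 0.32 without CS_Los 2. The difference for Hsph1, a cochaperone, was 1.08, and 0.17 without CS_Los 2, with CS_Los values of 8.89, 12.52 and 10.66.

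Heat shock factor binds inverted repeats of GAA and TTC, and the promoters of 2 of these genes are shown because their windows hold such repeats. They run from 250 bases before to 50 bases after the start of the gene and are credited to RefSeq (build GRCm38.p6). Capitals mark matches of GAANNTTC or TTCNNGAA, each of which reads the same on both strands. The Hspa1a window (chr17:34972107-34972406, minus strand) has 1 match and the Hspe1 window (chr1:55087898-55088197, plus strand) has 3, which overlap. Of 32851 such promoter windows 7.86% hold GAANNTTC and 8.52% hold TTCNNGAA. A match is a description of the letters, not a bound site.
Hspa1a: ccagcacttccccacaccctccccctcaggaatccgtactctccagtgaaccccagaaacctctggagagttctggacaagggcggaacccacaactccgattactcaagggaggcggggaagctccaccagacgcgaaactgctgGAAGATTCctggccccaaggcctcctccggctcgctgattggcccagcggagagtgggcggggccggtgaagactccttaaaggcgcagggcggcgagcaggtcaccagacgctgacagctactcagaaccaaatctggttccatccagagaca
Hspe1: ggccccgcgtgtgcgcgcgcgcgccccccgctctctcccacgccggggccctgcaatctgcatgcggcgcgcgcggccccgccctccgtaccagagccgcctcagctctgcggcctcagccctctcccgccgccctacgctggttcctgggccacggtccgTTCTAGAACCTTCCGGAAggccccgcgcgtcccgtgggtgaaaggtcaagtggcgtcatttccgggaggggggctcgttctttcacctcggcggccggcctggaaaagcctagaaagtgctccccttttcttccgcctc

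Stress genes of the endoplasmic reticulum and glucocorticoid targets followed the same order of arrays. Hspa5, the reticulum's main chaperone, read 10.93, 10.16 and 10.42 in CS and 11.03, 11.83 and 11.22 in CS_Los (0.86), without overlap, and the unfolded protein response list had a median of 0.26 over 21 genes, with 16 above zero. That list lay −0.01, 0.57 and 0.21 from the CS mean on CS_Los 1, 2 and 3, and its median was 0.09 without CS_Los 2 and 0.48 without CS_Los 1. It lay at 0.42, 0.30 and 0.32 on the RA arrays and at 0.31, 0.23 and 0.12 on the RA_Los arrays. Of 19 glucocorticoid-induced genes 16 lay above zero, with a median of 0.42 and arrays at −0.24, 0.83 and 0.53 from the CS mean. This median was 0.19 without CS_Los 2 and 0.65 without CS_Los 1. On the RA arrays the glucocorticoid list lay 0.62, 0.84 and 0.52 from the CS mean, and on the RA_Los arrays 0.69, 0.44 and 0.12. Tsc22d3, a glucocorticoid-induced leucine zipper protein, read 11.46, 10.69 and 10.39 in CS, 10.30, 12.24 and 11.87 in CS_Los and 11.89 to 12.48 in RA. Fkbp5, a cochaperone of the glucocorticoid receptor, read 6.53, 8.77 and 7.96 in CS_Los against 7.64, 6.77 and 7.35. In each list CS_Los 1 lay lowest and CS_Los 2 highest of the CS_Los arrays. Among immediate early genes Fos, which responds within minutes to many stimuli, read 8.88, 10.26 and 9.49 in CS and 9.63, 12.02 and 9.14 in CS_Los.

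Clock genes, whose transcripts cycle over the day, had a median near zero (0.03 over 17 genes) and some of the widest ranges. The median was 0.33 without CS_Los 1 and −0.30 without CS_Los 3. Arntl, the activator of the clock, read 5.91, 8.17 and 8.25 in CS, 9.03, 9.51 and 5.23 in CS_Los and 8.75 to 9.13 in RA. Dbp, a clock output that peaks in the opposite phase, had a mean of 11.55 ± 0.70 (SD, n = 3) in CS with CS 1 highest at 12.33, and read 9.61, 8.66 and 12.02 in CS_Los and 7.90 to 8.74 in RA. The arrays low in Arntl (CS 1, CS_Los 3, RA_Los 2 and RA_Los 3) were the 4 highest of all 12 in Dbp, at 12.33, 12.02, 11.91 and 12.51. Nr1d1, which encodes the repressor REV-ERB alpha, read 8.96, 8.98 and 8.70 in CS, 8.16, 6.87 and 9.14 in CS_Los and 6.40 to 6.59 in RA. Nfil3, a repressor in the same loop, read 6.77, 7.52 and 7.59 in CS, 8.02, 9.47 and 7.43 in CS_Los and 8.58 to 8.78 in RA. On CS_Los 2 these 4 genes lay nearer to the RA than to the CS mean, and on CS_Los 3 Arntl and Dbp lay near CS 1. Per2 and Per1, repressors of the loop, were lowest on CS_Los 1 (7.86 and 7.01) of all 6 arrays. The labels give no time of day for the lungs, and its part in the results was not tested. With 2 principal components of the clock genes as covariates, an alternative chosen after the data were seen, 0 features were called (lowest adjusted p = 0.402) and 1144 had an unadjusted p under 0.05.

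REV-ERB alpha and the ROR activators compete for the element TAGGTCA, and Arntl and Nfil3, which are known to be repressed by REV-ERB alpha, are shown because their start regions hold it. Capitals mark TAGGTCA, or its reverse complement TGACCTA in Nfil3, where the match is on the opposite strand. The element was searched on both strands and lies in 2.61% of the 32851 windows. The Arntl window is chr7:113207261-113207560 on the plus strand, 1 of 2 listed for the gene, and the Nfil3 window is chr13:52980990-52981289 on the minus strand (RefSeq, GRCm38.p6).
Arntl: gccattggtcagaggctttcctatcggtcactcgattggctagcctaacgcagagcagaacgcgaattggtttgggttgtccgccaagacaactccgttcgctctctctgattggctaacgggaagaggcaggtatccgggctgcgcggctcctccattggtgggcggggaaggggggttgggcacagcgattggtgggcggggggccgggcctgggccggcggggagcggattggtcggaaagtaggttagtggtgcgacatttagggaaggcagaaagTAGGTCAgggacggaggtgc
Nfil3: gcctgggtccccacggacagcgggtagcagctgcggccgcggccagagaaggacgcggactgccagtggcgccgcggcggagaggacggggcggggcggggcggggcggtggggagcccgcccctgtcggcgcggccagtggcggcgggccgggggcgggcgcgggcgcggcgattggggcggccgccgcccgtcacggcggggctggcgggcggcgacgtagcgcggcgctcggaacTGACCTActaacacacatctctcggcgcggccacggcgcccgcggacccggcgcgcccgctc

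Antioxidant genes under NRF2 had a median of −0.03 over 35 members, with 15 above and 20 below zero. Nqo1, a quinone reductase shared by the NRF2 and aryl hydrocarbon pathways, read 5.07, 5.49 and 5.50 in CS and 5.37, 4.69 and 5.55 in CS_Los (−0.15 ± 0.22). Hmox1, haem oxygenase, read 5.95, 5.56 and 4.83 against 5.73, 5.76 and 6.79 (0.64 ± 0.43; adjusted p = 0.899). Its difference was 0.30 without CS_Los 3 and 0.34 without CS 3. Bach1, a repressor of Hmox1, differed by −0.76 without CS_Los 3, and a link between the genes was not tested. Gsta3, a glutathione transferase, read 12.96, 12.64 and 12.63 against 13.05, 13.14 and 13.13. Of 9 aryl hydrocarbon receptor targets 3 were above and 6 below zero (median −0.17, and −0.07 without CS 3 or −0.08 without CS_Los 1), and 0 were called. Housekeeping lists had medians near zero, 0.05 for oxidative phosphorylation, −0.01 for ribosomal proteins, 0.0002 for the proteasome and 0.03 for the cell cycle.

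How far each CS_Los array carried the smoke pattern was read from genes chosen in batch 2, whose arrays are not among those compared. There 701 features (5.51%) differed between 4 CS and 4 RA arrays at an adjusted p under 0.05 in limma, 308 higher and 393 lower. The smoke score, the mean of the higher genes minus the mean of the lower ones, is given relative to the RA mean of batch 1. CS arrays scored 0.73, 1.27 and 1.17, and CS_Los arrays scored 1.33, −0.18 and 0.57. RA arrays lay between −0.07 and 0.06, and RA_Los arrays at −0.06, 0.56 and 0.68. RA_Los 2 and RA_Los 3, labelled as without smoke, reached 52.7% and 64.1% of the CS mean. A raised score was therefore not limited to arrays labelled as smoke. CS_Los 1 was thus the highest of all 12 arrays, CS_Los 2 the lowest, and CS_Los 3 lay below the CS arrays and level with RA_Los 2. The mean difference of CS_Los from CS was −0.49 with an SD of 0.76 within CS_Los and 0.29 within CS. It was −0.11 without CS_Los 2 and −0.87 without CS_Los 1, and with CS_Los 1 as the only losartan array it was 0.27.

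**Figure D4:**
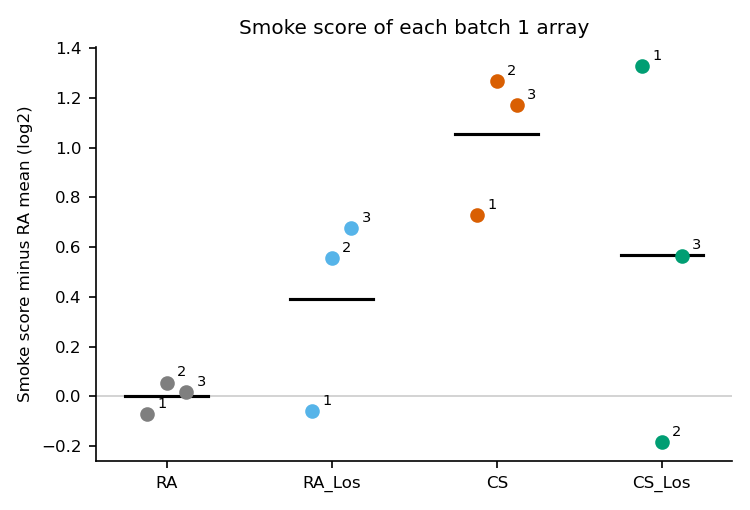
The smoke score (vertical axis, log2 units relative to the RA mean) of each of the 12 batch 1 arrays, numbered by replicate, with bars at the group means. CS_Los 1 is at 1.33 above the CS arrays, CS_Los 3 at 0.57, and CS_Los 2 at −0.18 with the RA arrays.

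Gene by gene, 260 of the 308 smoke-raised genes (84.4%) had a lower mean in CS_Los than in CS, and 322 of the 393 smoke-lowered genes (81.9%) had a higher one, against 50.8% of all features lower. Without CS_Los 2 these shares were 65.3% and 55.0%. On CS_Los 2 alone 283 of the 308 lay below the CS mean (91.9%), close to the 284 to 294 of the RA arrays, on CS_Los 3 239 did (77.6%) and on CS_Los 1 99 did (32.1%). The groups did not overlap in 23 of the 308, lower (7.47%), and in 33 of the 393, higher (8.40%), where all features gave 6.22% and 4.39%. None of the 701 was called. Across all 12719 features the CS_Los difference in batch 1 and the smoke difference in batch 2 had a Pearson r of −0.27, a description over genes that are not independent.

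**Figure D5:**
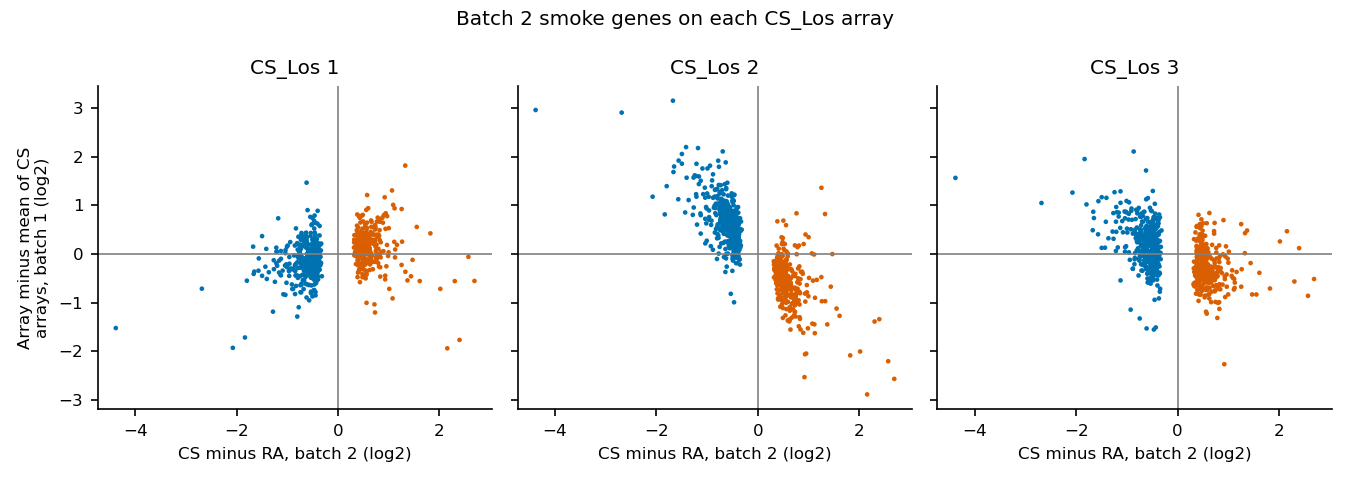
Each panel is a CS_Los array and each point 1 of 701 smoke genes of batch 2; the horizontal axis is the CS minus RA difference in batch 2 and the vertical axis the array's value minus the CS mean of batch 1, both in log2. Smoke-raised genes (orange) lie mostly below zero on CS_Los 2 and 3 and above it on CS_Los 1, and smoke-lowered genes (blue) the reverse.

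Among named smoke-raised genes, Retnla, Saa3, Cirbp and Aoc1 had their lowest CS_Los value on CS_Los 2, and Cxcl5 had it on CS_Los 3. Retnla, a secreted protein of airway epithelium and alternatively activated macrophages, read 10.89, 11.84 and 11.53 in CS, 10.87, 8.85 and 10.91 in CS_Los and 8.38 to 9.11 in RA. Saa3, an acute phase protein, read 6.72, 7.67 and 7.90 in CS, 7.37, 5.22 and 6.57 in CS_Los and 4.39 to 4.99 in RA. CS_Los 2 lay at or near the RA range for both genes, whose differences were −1.21 ± 0.48 and −1.04 ± 0.45 (SE; adjusted p = 0.776 and 0.823). Without CS_Los 2 they were −0.53 and −0.46. Cirbp, a cold-induced RNA-binding protein, read 8.11, 9.37 and 9.09 against 9.28, 6.77 and 8.15. Aoc1, which oxidises histamine and polyamines, was the sole one of the 10 most smoke-raised genes without overlap, at 8.16, 8.91 and 8.20 in CS and 7.86, 7.15 and 8.03 in CS_Los, a difference of −0.74 that was −0.47 without CS_Los 2. Cxcl5, a neutrophil attractant of alveolar epithelium, read 7.64, 8.16 and 8.66 against 8.03, 8.15 and 7.32, a difference of −0.32 that was −0.06 without CS_Los 3. Among the most smoke-lowered genes, Fam107a, a stress-responsive actin regulator, read 6.59, 6.01 and 6.82 in CS, 6.11, 8.27 and 7.21 in CS_Los and 7.99 to 8.28 in RA. Its difference of 0.73 was 0.19 without CS_Los 2.

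Whether losartan differed in smoke from losartan in room air was tested by the difference of the 2 effects. Of 12719 features 0 (0%) passed, the lowest adjusted p was 0.517, and 912 (7.17%) had an unadjusted p under 0.05. Ccl9 was 0.96 higher with losartan in smoke and 0.29 higher in room air, a difference of effects of 0.67 ± 0.28 (SE; adjusted p = 0.658). Katnal1 was at −1.10 in smoke and 0.35 in room air, Csf2rb2 at 1.04 and −0.02, and Mrc2 at −0.76 and −0.25. Eln, at 0.58 in smoke, was at −1.11 in room air, where RA_Los arrays read 9.84, 8.52 and 8.70. Hspa1a was at 1.00 in smoke and −2.06 in room air, and Dbp at −1.45 and 2.76. Without CS_Los 2 the values in smoke were 0.02 for Hspa1a and −0.74 for Dbp. Across features the 2 losartan effects, which share no array, had a Pearson r of −0.11.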

How the data were processed

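Whole-lung RNA was measured on 20 bead arrays. The authors deposited linear, unnormalized intensities, per the file headers, and used BeadStudio, per the submitters' processing notes, which name no version. A deposited detection p-value stands to the right of each signal, per the file headers, and was paired with it. The authors' log2 values, which equal the log2 signal shifted to a common median, served as an alternative.

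Background was corrected with limma's nec (offset 16), followed by quantile normalization over the 20 arrays and log2 (R 4.3.3, limma 3.58.1). The filter asked for a detection p below 0.05 on 3 or more arrays and left 17012 probes. Each gene was represented by its brightest remaining probe, for 11196 named genes and 1523 probes without a name. In the platform annotation 23141 probes had 1 gene symbol and 2556 had none. The 4 groups of batch 1 were fitted together with lmFit and eBayes, and p-values were adjusted by Benjamini-Hochberg over all features. The fit was tested on simulated data with large planted differences, the same spread in every group and no outlying array. That test does not cover smaller differences or the unequal spread seen here. "At least" folds set the detected group against the lowest detected signal or the probe's own. The number of arrays limits the precision.

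Named genes were the 10 highest and 10 lowest statistics, the 10 highest and lowest differences without overlap, the 10 widest over CS_Los, 2 at each end of each list, the genes of the study question, and the 10 most raised and lowered smoke genes of batch 2. Other list members were named after their values were seen. The members and the 37 lists were chosen with earlier results of these data known. The labels number the CS arrays 1 to 3 and the CS_Los arrays 7 to 9, so they give no pairing. CS and CS_Los arrays at the same place in this order had deviations that correlated at −0.29, −0.16 and −0.10. Deviations from means of 3 arrays cannot decide whether arrays were paired. Alternatives covered background, normalization, filters, fits and arrays left out.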

Additional observations from a re-analysis of the deposited data

How the results depend on the processing

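No gene was called for CS_Los against CS in 28 of 29 alternatives (lowest adjusted p 0.106 to 0.960), and with the replicate number as a block 0 were called (lowest adjusted p = 0.715). The exception was the fit of all 20 arrays with batch, which called 1 gene, Mrc2. The difference between the losartan effects, and the count of called list members, were 0 in every alternative in which they could be fitted. Leaving out single arrays kept 0 calls (0 to 0). The ratio of median SDs was 1.31 to 1.49 under other normalizations and filters. With an array left out it was 1.06 to 2.29, where an SD of 2 arrays is set against an SD of 3. The smoke score difference was −0.40 to −0.73 under other settings, −0.87 to −0.11 with an array left out, and 0.27 without CS_Los 2 and CS_Los 3, which leaves 1 losartan array assumed to vary like the others. The cause was not tested. With the authors' log2 values the median of all features was 0.08 and 68.8% lay above zero, against 49.2%, and 61.1% of smoke-raised genes were lower and 94.4% of smoke-lowered genes higher. With the 75th percentile shift 42.5% of features lay above zero. Of 204 named genes 139 kept the sign of their difference in every alternative and 65 did not, and of 37 list medians 10 kept it and 27 did not. Genes near the detection limit, such as Agtr1b and Slc35e4, have differences limited by background.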
